A study of Rattus norvegicus with 2 samples.

Results

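The genes described here are 37 rat genes of cholesterol and fatty acid synthesis, 20 in a sterol branch and 17 in a fatty acid branch. They were taken as a list of gene symbols and found on the arrays through the RefSeq transcript accession of each probe, out of 15159 genes that could be named in that way. Of the 37, 36 had a probe. A level well above background on both arrays, here called measured, was obtained for 34 of them, all 20 of the sterol branch and 14 of the fatty acid branch. Acacb and Scd had probes that stayed at background on both arrays, and Srebf1 was not matched to a probe.

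The RNA came from RMT-1 cells, a rat mammary tumour line, as its clone E4, which were grown in RPMI-1640 medium with 10% fetal bovine serum. Cells were transfected transiently with a negative control siRNA or with an siRNA against Pla2g4c. Each RNA was hybridised to its own one-colour array, called the control array and the Pla2g4c array here. Pla2g4c encodes a phospholipase A2, an enzyme of the class that frees fatty acids from membrane phospholipids, and the title of the series names apoptosis after its repression as the subject. The siRNA sequence, its dose and the time after transfection are not given in the sources used here. Each group was 1 array, so nothing below was tested against the spread between cultures. The level of Pla2g4c itself was not analysed here, since 0 probes matched it, so the labels were not checked by the targeted transcript.

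Cells make cholesterol from acetyl-CoA through mevalonate, isoprenoid phosphates, squalene and lanosterol. They make fatty acids from the same acetyl-CoA through malonyl-CoA, and then lengthen, desaturate and activate them. Transcription of both branches is controlled by the sterol regulatory element binding proteins, Srebf2 mainly for sterol enzymes and Srebf1 mainly for fatty acid enzymes. The Insig proteins hold these factors in the endoplasmic reticulum when sterols are plentiful. Such factors act at promoters together with NF-Y, which binds CCAAT boxes, and with Sp1.

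Signals are given as scaled signal, the processed signal as a percentage of the 75th percentile of that array's gene spots. That percentile was at a processed signal of 852 for the control and 1105 for the Pla2g4c siRNA, where 61.9% and 63.1% of the gene spots exceeded background clearly by the scanner's flag. A difference is the log2 value on the Pla2g4c array minus that on the control array. The number after ± is the error that the scanner software estimates for the spots, and it holds no spread between cultures. Higher and lower below are relative to the 75th percentile. The median difference of all 9026 measured genes was -0.010, and it was 0.12 in the authors' deposited values and 0.53 after scaling to spike-in RNAs. The basal epithelial markers Krt5, Krt14, Krt17 and Tp63 were measured on both arrays, 4 of 4, with differences from -1.72 to -0.13 and summed scaled signals of 70939 and 29370. Of the luminal markers 4 of 5 were measured, all but Krt18, with differences from -0.63 to 1.03 and summed scaled signals of 973 and 961. Of the markers of other cell types, 1 of 4 was measured for leukocytes (Cd68, summed scaled signals 24.5 and 18.8), 1 of 3 for fibroblasts (Col1a1, 27.3 and 29.9), 1 of 2 for endothelium (Cdh5, 7.32 and 5.53) and 0 of 4 for adipocytes. Ptprc, Cd3e, Dcn, Pecam1, Adipoq, Lep and Cidec stayed at background on both arrays. The fibroblast marker Pdgfra was above background on the Pla2g4c array only. Cd79a, for leukocytes, and Plin1, for adipocytes, had no probe. The part of the epithelial marker differences in the results below was not tested, and in bulk RNA fewer cells of a type and less RNA per cell cannot be told apart.

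Neither branch moved as a block between the arrays. Of the 34 measured members 17 were above 0 and 17 below, where 49.0% of all measured genes were above 0. After spike-in scaling 32 members were above 0, where the median of all genes was 0.53. The share of all genes above 0 was not counted there. No member differed by 2-fold, 0 of 34 measured, where 5.96% of all measured genes did, 2.91% upward and 3.05% downward. The largest difference of a member was 1.64-fold, that of the desaturase Fads2. At 1.5-fold there were 3 of 34, against 19.0% of all measured genes. Fads1 and Acsl4 were higher, where 8.69% of all genes were, and Fads2 was lower, where 10.3% were, and all 3 belong to the fatty acid branch. Their signs were the same under every alternative that measured them, but their place past 1.5-fold was not. Under normexp background correction all 3 fell short of it, with Fads1 at 0.43, Acsl4 at 0.57 and Fads2 at -0.38. Under cyclic loess Fads1 (0.58) and Acsl4 (0.56) fell short of it, and Acly (0.67) was past it. Acly was also past it under quantile normalization (0.63) and in the authors' deposited values (0.61), where Fads2 (-0.58) fell short. After spike-in scaling further members of both branches were past it, all of them higher, and Fads2 (-0.18) was not. These were Mvd, Fdps, Fdft1, Sqle, Nsdhl, Hsd17b7, Sc5d and Insig1, and in the fatty acid branch Acly, Acaca, Fasn, Elovl1 and Elovl5. The share of all genes past 1.5-fold was not counted under the alternatives, so the count of 3 of 34 holds for the reported scaling only. A difference larger than the software's error was found for 18 of the 34 members, 9 higher and 9 lower, or 52.9%, against 57.1% of all measured genes.

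The sterol branch had a median difference of -0.067 over 20 genes, with 9 above 0 and 11 below, and the fatty acid branch one of 0.067 over 14 genes, with 8 above 0 and 6 below. After spike-in scaling these medians were 0.47 and 0.61, and under normexp background correction the second was -0.11. The sterol median minus the fatty acid median was -0.13, with no test. This order was turned under normexp, where it was 0.039, and when only probes above the median signal were kept, where it was 0.095. It shrank to -0.055 with no filter on dim probes and to -0.086 when a gene was read from its brightest probe. The spread within a branch was wider than the gap between the branches. Differences ran over 0.84 from lowest to highest in the sterol branch and over 1.33 in the fatty acid branch, with an SD over genes of 0.26 and 0.41.

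**Figure D1:**
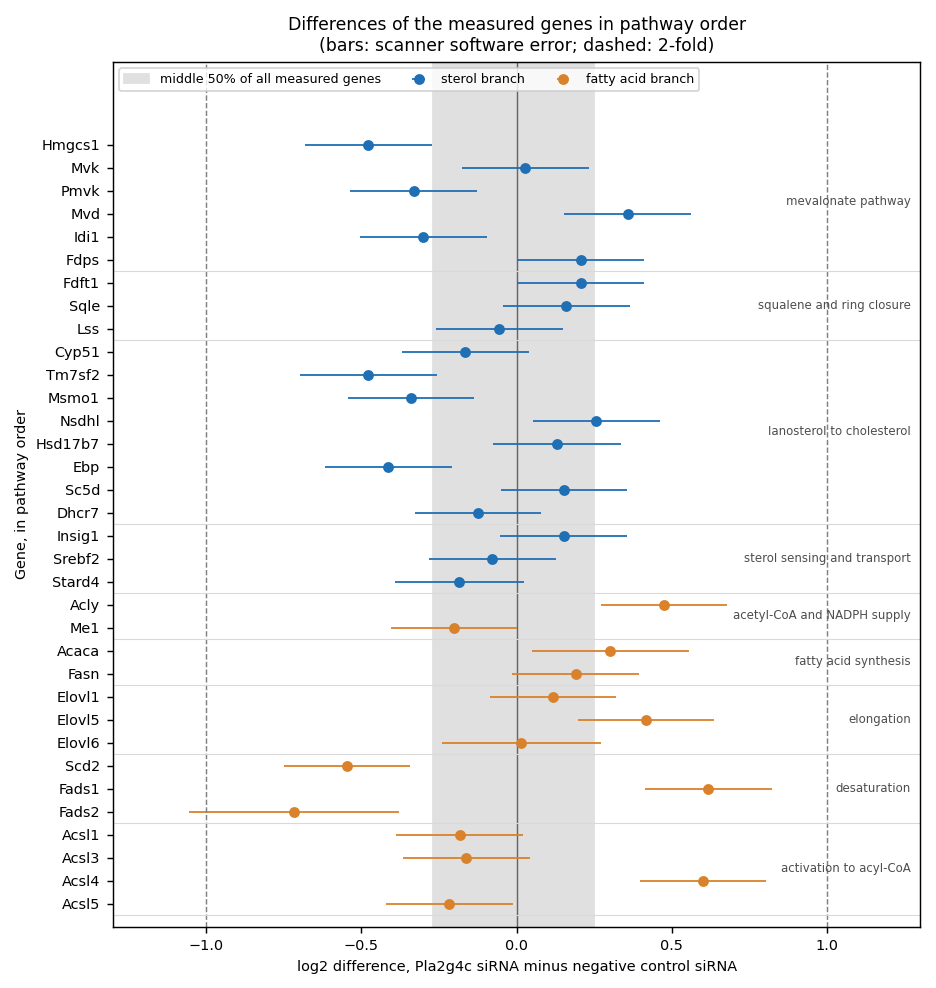
Difference of each measured gene on the log2 scale (horizontal axis), Pla2g4c siRNA minus negative control siRNA, in pathway order from top to bottom, with the sterol branch in blue and the fatty acid branch in orange. Bars are the scanner software's error, the grey band holds the middle 50% of all measured genes and dashed lines mark 2-fold. No gene reaches 2-fold, and the desaturases Fads1 (0.62) and Fads2 (-0.72) lie at opposite ends of these values. Scaling to spike-in RNAs would move all points up together, to a median of 0.53 over all genes, and 15 of the 17 points now below 0 would lie above it.

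The mevalonate pathway held genes at both ends of the sterol branch. Hmgcs1, which makes HMG-CoA from acetyl-CoA units, gave scaled signals of 1791 and 1801 at its 2 control spots and of 1285 and 1296 on the Pla2g4c array. Both spots of the Pla2g4c array were lower, with a difference of -0.48 ± 0.20, which was 0.062 after spike-in scaling. Mvd, which decarboxylates mevalonate pyrophosphate, went the other way, with 206 and 219 on the control array against 269 and 275. Its difference was 0.36 ± 0.20.

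Between them in the pathway stand the mevalonate kinases. Mvk, the first, gave 51.5 and 55.3 against 54.2 and 54.6, so its spots overlapped, and the difference was 0.028 ± 0.20. Pmvk, the second, gave 392 and 401 against 312 and 318, a difference of -0.33 ± 0.20. Idi1, which interconverts the isoprenoid building blocks, was lower at both spots, with 210 and 213 against 165 and 178 and a difference of -0.30 ± 0.20. Fdps, which joins those blocks into farnesyl pyrophosphate, had a pair of probes that differed by 0.19 and 0.23, and its mean of 0.21 ± 0.20 was just above the error, while under quantile normalization it was 0.33 and under cyclic loess 0.38. The pathway was thus split, with 3 of 6 genes above 0 and 3 below. After spike-in scaling all 6 were above 0, where the median of all genes was 0.53. The share of all genes above 0 was not counted there.

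At the entry to sterols the differences were small. Fdft1, squalene synthase, gave 225 and 228 on the control array against 257 and 267, with a difference of 0.21 ± 0.20. Sqle, the epoxidase that is a rate-limiting step, gave 399.6 and 400.4 against 442 and 452, with 0.16 ± 0.20. Lss, which closes the sterol rings, differed by -0.056 ± 0.20 and its spots overlapped. Of these 3 genes only Fdft1 differed by more than its error. It was just above it, and was 0.19 under quantile normalization.

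Of the 8 enzymes that turn lanosterol into cholesterol, 3 were above 0 and 5 below. After spike-in scaling all 8 were above 0, where the median of all genes was 0.53 and the share above 0 was not counted. Ebp, the sterol isomerase, gave 2021 and 2042 on the control array against 1519 and 1533, a difference of -0.41 ± 0.20. Msmo1, which starts removal of the methyl groups next to the hydroxyl-bearing carbon, gave 1783 and 1877 against 1405 and 1486, a difference of -0.34 ± 0.20. Tm7sf2, a sterol reductase, was dim, with 8.39 and 8.54 against 5.97 and 6.20, and differed by -0.48 ± 0.22. These enzymes were lower at every spot, and each turned to a small positive value after spike-in scaling, 0.13 for Ebp, 0.20 for Msmo1 and 0.062 for Tm7sf2.

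Nsdhl, the decarboxylating dehydrogenase that acts after Msmo1, was higher at both spots, with 48.8 and 51.6 against 57.9 and 62.1 and a difference of 0.26 ± 0.20. Hsd17b7, the ketoreductase of the same demethylation, differed by 0.13 ± 0.20, and Sc5d, a sterol desaturase, by 0.15 ± 0.20, both with overlapping spots. Cyp51, the lanosterol demethylase, had 10 spots on each array, from 280 to 304 with a median of 296 for the control and from 245 to 274 with a median of 265 for the Pla2g4c siRNA. The spots did not overlap, and the difference of -0.16 was smaller than its error of 0.20. Dhcr7, the reductase that ends one route to cholesterol, differed by -0.12 ± 0.20.

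The genes of sterol sensing and transport differed by less than their errors, Stard4 only in the mean of its probes. Insig1, itself a target of the factors it restrains, differed by 0.15 ± 0.20 with overlapping spots of 128 and 136 on the control array against 135 and 159. Srebf2, the sterol regulatory factor, gave 727 and 729 against 685 and 695, a difference of -0.078 ± 0.20. Stard4, a carrier that moves cholesterol between membranes, differed by -0.18 ± 0.21 over a pair of probes. The brighter, of 10 spots, was at -0.34 ± 0.20, beyond its error, and the dimmer, of 1 spot, at -0.030 ± 0.21.

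**Figure D2:**
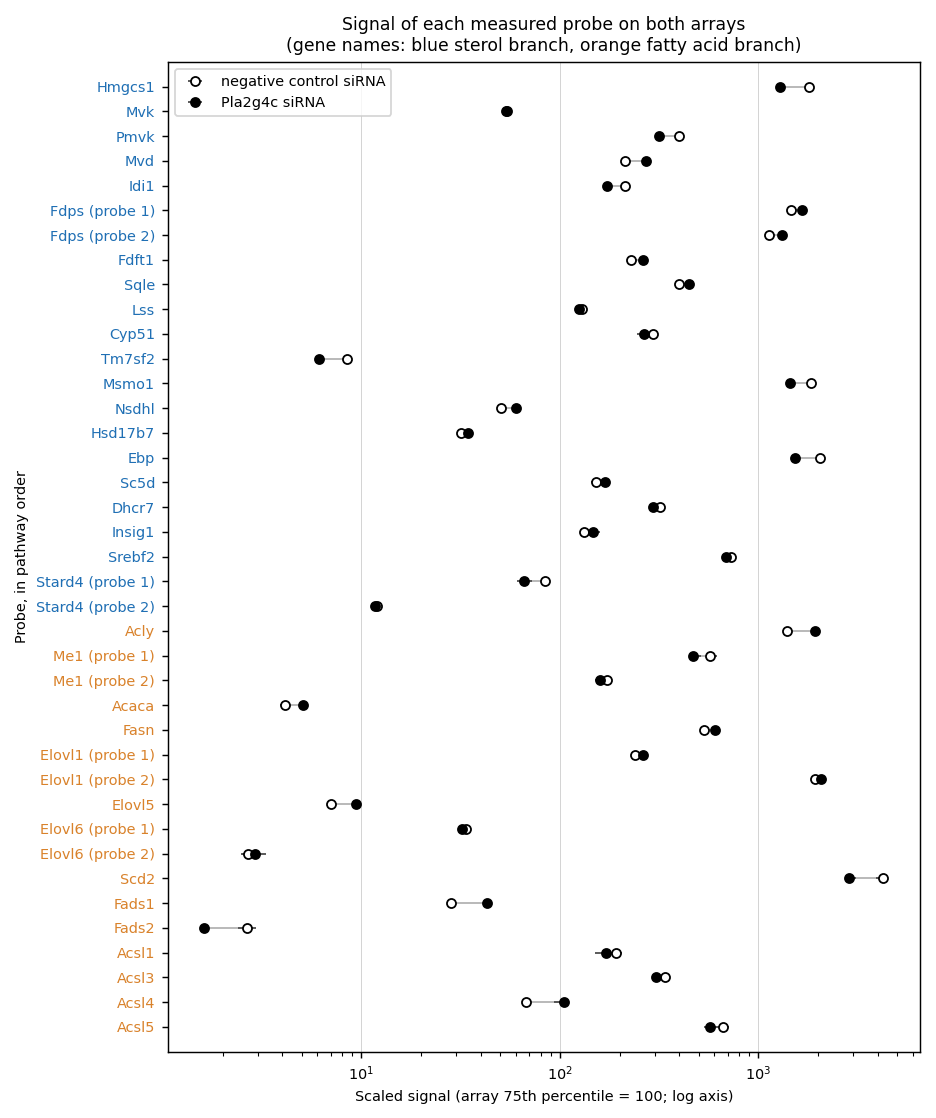
Scaled signal of every measured probe (log axis, array 75th percentile = 100) on the negative control siRNA array (open) and the Pla2g4c siRNA array (filled), with probes named in pathway order on the vertical axis and gene names in blue for the sterol branch and orange for the fatty acid branch. Points are medians over the spots of a probe and bars run from the lowest to the highest spot. Scd2 lies at the bright end, at 4228 and 2862, and Fads2 at the dim end, at 2.67 and 1.61. Positions along the axis compare arrays for 1 probe, not probes with each other.

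The promoters of the 2 highest and 2 lowest genes of the sterol branch that had a promoter in the RefSeq table (build GRCr8) are shown. Each line is the 250 bases before a RefSeq transcript start, 5′ to 3′ on the gene's strand, and capitals mark CCAAT or its reverse complement ATTGG. Hmgcs1 lies at chr2:53382054-53382303 on the plus strand, Mvd at chr19:67414975-67415224 on the minus strand, Nsdhl at chrX:155817110-155817359 on the plus strand and Tm7sf2 at chr1:212789542-212789791 on the minus strand.
Hmgcs1: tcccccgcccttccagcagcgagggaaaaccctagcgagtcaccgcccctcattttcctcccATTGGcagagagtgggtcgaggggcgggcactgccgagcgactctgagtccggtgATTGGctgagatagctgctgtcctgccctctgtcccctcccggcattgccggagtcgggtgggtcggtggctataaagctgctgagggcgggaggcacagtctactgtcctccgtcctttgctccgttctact
Mvd: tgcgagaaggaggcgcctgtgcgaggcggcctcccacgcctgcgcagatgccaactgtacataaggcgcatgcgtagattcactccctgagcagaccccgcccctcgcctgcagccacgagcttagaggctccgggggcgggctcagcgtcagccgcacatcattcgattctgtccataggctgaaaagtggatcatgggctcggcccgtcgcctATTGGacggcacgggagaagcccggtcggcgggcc
Nsdhl: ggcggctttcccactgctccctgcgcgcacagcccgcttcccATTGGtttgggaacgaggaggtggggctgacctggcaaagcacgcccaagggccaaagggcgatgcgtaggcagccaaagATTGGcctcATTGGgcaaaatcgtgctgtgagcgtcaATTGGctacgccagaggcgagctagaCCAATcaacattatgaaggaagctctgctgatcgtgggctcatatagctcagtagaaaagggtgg
Tm7sf2: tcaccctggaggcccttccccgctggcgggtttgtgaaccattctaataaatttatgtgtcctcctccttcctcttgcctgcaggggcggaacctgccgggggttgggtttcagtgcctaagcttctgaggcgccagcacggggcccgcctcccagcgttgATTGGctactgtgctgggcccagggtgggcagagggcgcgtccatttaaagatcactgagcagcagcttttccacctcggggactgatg

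Hmgcs1 holds the CCAAT box at 2 places, Tm7sf2 at 1, Mvd at 1 and Nsdhl at 5. Whether the box goes with the differences was not tested. Of the 16 sterol branch genes with a promoter in the table, 14 held CCAAT on either strand, all but Cyp51 and Dhcr7. In the fatty acid branch 8 of 14 did. The share was 34.0% of all 33469 promoters of the table and 37.4% of the 7486 measured genes with one. The Sp1-type box GGGCGG was in 14 of 16 and 7 of 14, against 59.5% of measured genes. It was in 30.5% of all promoters. The classical sterol regulatory element was in 0 of the 30 promoters of the list and in 0.105% of all promoters. Its looser form TCACNCCAC, which every match to the classical element also holds, was in 0 of 30 and in 0.974%. All were searched on both strands in the 250 bases. At such low shares of all promoters, 0 of 30 does not set the list apart, and other variants of the element were not searched. These are matches of letters in a fixed window and not sites of binding.

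The fatty acid branch begins with the supply of acetyl-CoA and NADPH. Acly, which splits citrate into cytosolic acetyl-CoA for both branches, gave scaled signals of 1392 and 1393 on the control array against 1883 and 1987. Both spots of the Pla2g4c array were brighter, 1.39-fold in the mean, with a difference of 0.47 ± 0.20. The difference was 0.50 under normexp, 0.63 under quantile normalization, 0.67 under cyclic loess and 1.01 after spike-in scaling. The alternatives that choose probes or spots could not change it, since Acly had 1 probe and no flagged spot. Me1, which yields NADPH for synthesis, differed by -0.20 ± 0.20 over probes at -0.28 and -0.12, with 2 spots left out for outlier flags.

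The synthases themselves differed little. Fasn, the fatty acid synthase, gave 517 and 542 on the control array against 587 and 621, a difference of 0.19 ± 0.20. Acaca, the carboxylase that makes malonyl-CoA, was dim, with 3.89 and 4.39 against 4.89 and 5.29, and its difference of 0.30 ± 0.25 was -0.095 under normexp background correction. Its mitochondrial form Acacb was read at 0.33 and 0.37 on the control array against 0.24 and 0.49, not well above background, and has no fold.

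The 3 elongases were above 0, 1 of them by more than its error, but Elovl6 was below 0 under normexp (-0.15) and by its brightest probe (-0.064). Elovl5, which lengthens polyunsaturated chains, gave 6.75 and 7.26 on the control array against 9.17 and 9.54, a difference of 0.42 ± 0.22. Under normexp this was 0.077, and the gene was among the dimmest 2257 of the 9026 measured. Elovl1, which acts on very long chains, differed by 0.13 and 0.10 at its probes, 1 spot each. Elovl6, which lengthens saturated chains, differed by -0.064 and 0.095 at its probes, 0.016 ± 0.26 in the mean.

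The desaturases went in opposite directions, and in the reported values Fads1 and Fads2 were the highest and lowest members. Acly was highest under quantile normalization (0.63) and cyclic loess (0.67), and under normexp Acsl4 (0.57) was highest and Scd2 (-0.53) lowest. Fads1, which makes the last double bond on the way to arachidonic acid, gave 27.0 and 29.2 on the control array against 41.8 and 44.4. That is 1.53-fold higher, a difference of 0.62 ± 0.20, and 92.1% of all measured genes lay at or below it. Under the alternatives it lay between 0.43 and 1.16. Fads2, which makes the first double bond on the same route, gave 2.40 and 2.93 against 1.57 and 1.66, and 6.63% of genes lay at or below it.

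Its difference of -0.72 ± 0.34 had the largest error of the 34 measured members. The processed signals behind it were 22.7 and 17.8 (medians), where the lowest signal of a gene spot well above background was 11.3 for the control and 11.6 for the Pla2g4c siRNA. The difference was -0.38 under normexp background correction and -0.18 after spike-in scaling. Scd2, a stearoyl-CoA desaturase that makes monounsaturated fatty acids, was bright, with 10 spots from 3891 to 4398 (median 4228) on the control array against 2734 to 3111 (median 2862). The spots did not overlap and the difference was -0.55 ± 0.20. It was -0.21 under quantile normalization, -0.28 under cyclic loess and -0.0066 after spike-in scaling. Scd, its close relative, was read at 0.32 and 0.77 against 0.26 and 0.43, also not well above background.

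Among the acyl-CoA synthetases, which activate fatty acids, Acsl4 differed from the others. It prefers arachidonic acid, and its 7 spots that carried no outlier flag ran from 65.2 to 68.8 (median 67.2) on the control array against 93.2 to 107 (median 104.5). The groups of spots did not overlap, and the difference was 0.60 ± 0.20, a 1.52-fold higher signal. It was 0.61 with the 3 flagged spots kept, and between 0.56 and 1.14 under all alternatives. Acsl1, Acsl3 and Acsl5 were at -0.18, -0.16 and -0.22, each with an error of 0.20. All of them turned above 0 after spike-in scaling, where the median of all genes was 0.53. Acsl5, with 10 spots from 629 to 709 for the control and from 534 to 623 for the Pla2g4c siRNA, was the only one of the 3 whose difference exceeded its error.

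The promoters of the fatty acid genes at both ends are shown in the same way. Fads1 lies at chr1:216252442-216252691 on the plus strand, Acsl4 at chrX:110803262-110803511 on the minus strand, Scd2 at chr1:253118127-253118376 on the plus strand and Fads2 at chr1:216172034-216172283 on the minus strand.
Fads1: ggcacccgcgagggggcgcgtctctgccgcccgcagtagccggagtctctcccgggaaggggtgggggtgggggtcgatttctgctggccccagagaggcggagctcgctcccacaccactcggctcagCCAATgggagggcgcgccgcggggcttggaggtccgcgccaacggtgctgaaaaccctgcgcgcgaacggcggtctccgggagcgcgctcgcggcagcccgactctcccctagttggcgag
Acsl4: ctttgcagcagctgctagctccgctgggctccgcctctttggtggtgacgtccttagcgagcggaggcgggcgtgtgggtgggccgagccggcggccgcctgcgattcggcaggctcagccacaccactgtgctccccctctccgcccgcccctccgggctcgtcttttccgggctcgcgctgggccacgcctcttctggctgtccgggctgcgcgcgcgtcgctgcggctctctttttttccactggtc
Scd2: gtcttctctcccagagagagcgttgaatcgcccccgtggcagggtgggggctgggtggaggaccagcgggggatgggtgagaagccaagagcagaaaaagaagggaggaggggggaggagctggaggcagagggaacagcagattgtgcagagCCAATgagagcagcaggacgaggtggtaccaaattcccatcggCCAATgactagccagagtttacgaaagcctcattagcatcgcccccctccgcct
Fads2: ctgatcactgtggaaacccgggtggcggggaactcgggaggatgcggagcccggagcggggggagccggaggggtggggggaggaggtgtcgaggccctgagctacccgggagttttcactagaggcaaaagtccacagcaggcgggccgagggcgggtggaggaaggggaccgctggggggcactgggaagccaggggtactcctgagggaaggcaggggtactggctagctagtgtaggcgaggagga
Fads1 holds CCAAT at 1 place, Scd2 at 2 places, and Acsl4 and Fads2 at 0. Here too, a relation to the differences was not tested.

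In 27 of the 34 members the spots of the arrays did not overlap for any probe, as in 78.8% of all measured genes. The Pla2g4c array was higher in 12 of them, where 39.0% of all genes were, and lower in 15, where 39.9% were. These counts include probes with 1 spot per array, which cannot overlap, as both probes of Elovl1 and 1 probe each of Fdps and Stard4. The 7 members with overlapping spots were Mvk, Lss, Hsd17b7, Sc5d, Insig1, Elovl6 and Acsl1. Spots of 1 probe share the RNA, the labelling and the array, and they do not stand in for separate cultures. Of the 5 members with more than 1 measured probe, Fdps, Elovl1, Me1 and Stard4 had probes in the same direction and Elovl6 did not.

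The differences of all genes turned downward at the bright end only. Of the 34 members 18 were in the 2257 genes with the highest level, where the median of all genes was -0.059. In the dimmer groups of 2257, 2256 and 2256 genes, from the dimmest up, that median was -0.017, 0.036 and 0.0095. Among the 654 genes with a mean level at least 10 times the 75th percentile the median was -0.18. The 6 members at that level were Hmgcs1, Fdps, Msmo1, Ebp, Acly and Scd2, with a median of -0.38 and 2 of them, Fdps and Acly, above 0. Under cyclic loess, which removes such a trend, Hmgcs1 was at -0.29, Msmo1 at -0.15, Ebp at -0.21, Scd2 at -0.28, Fdps at 0.38 and Acly at 0.67. The part of signal in these differences was not tested further.

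**Figure D3:**
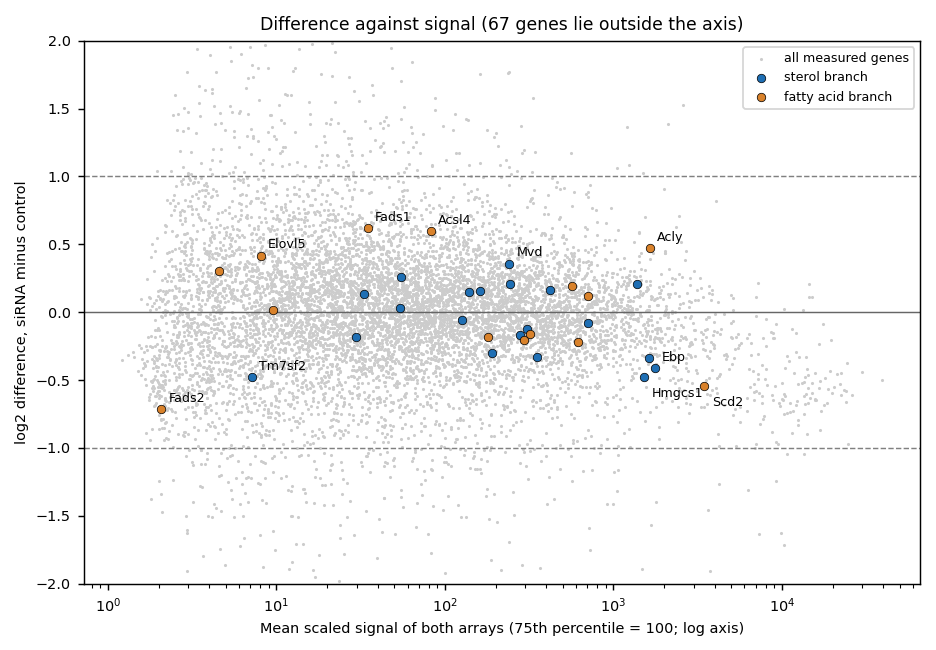
Difference of each measured gene on the log2 scale (vertical axis) against its mean scaled signal on both arrays (log axis), with all genes in grey, the sterol branch in blue and the fatty acid branch in orange, and dashed lines at 2-fold. Grey points turn downward at the bright end, with a median of -0.18 among the 654 genes at 10 times the 75th percentile or more. Hmgcs1 (-0.48), Ebp (-0.41) and Scd2 (-0.55) lie below that median and Acly (0.47) above it. The 67 genes outside the axis are not drawn, and none of them is a member.

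Directions relative to the bulk of genes mostly stayed the same, but several of the alternatives could hardly change them. Of the 34 members 28 stayed on their side of the median of all genes under every alternative that measured them. The others were Mvk, Lss, Dhcr7, Srebf2, Acaca and Elovl6, and their reported differences lay between -0.12 and 0.30. Scalings by a constant per array cannot change these sides. For a gene with no other probe and no flagged spot, the choices of probes and spots move only the median of all genes. The share of all measured genes that kept their side was not counted, so the 28 cannot be set beside it. On the scale as given, 14 of the 17 members above 0 stayed above 0 under every alternative. Of the 17 below 0, only Scd2 and Fads2 stayed below under every alternative. Spike-in scaling moved the other 15 above 0, and the median of all genes to 0.53. That scaling put 3 of 34 members at 2-fold, Acly, Fads1 and Acsl4, all higher, where 13.4% of all genes were at 2-fold.

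**Figure D4:**
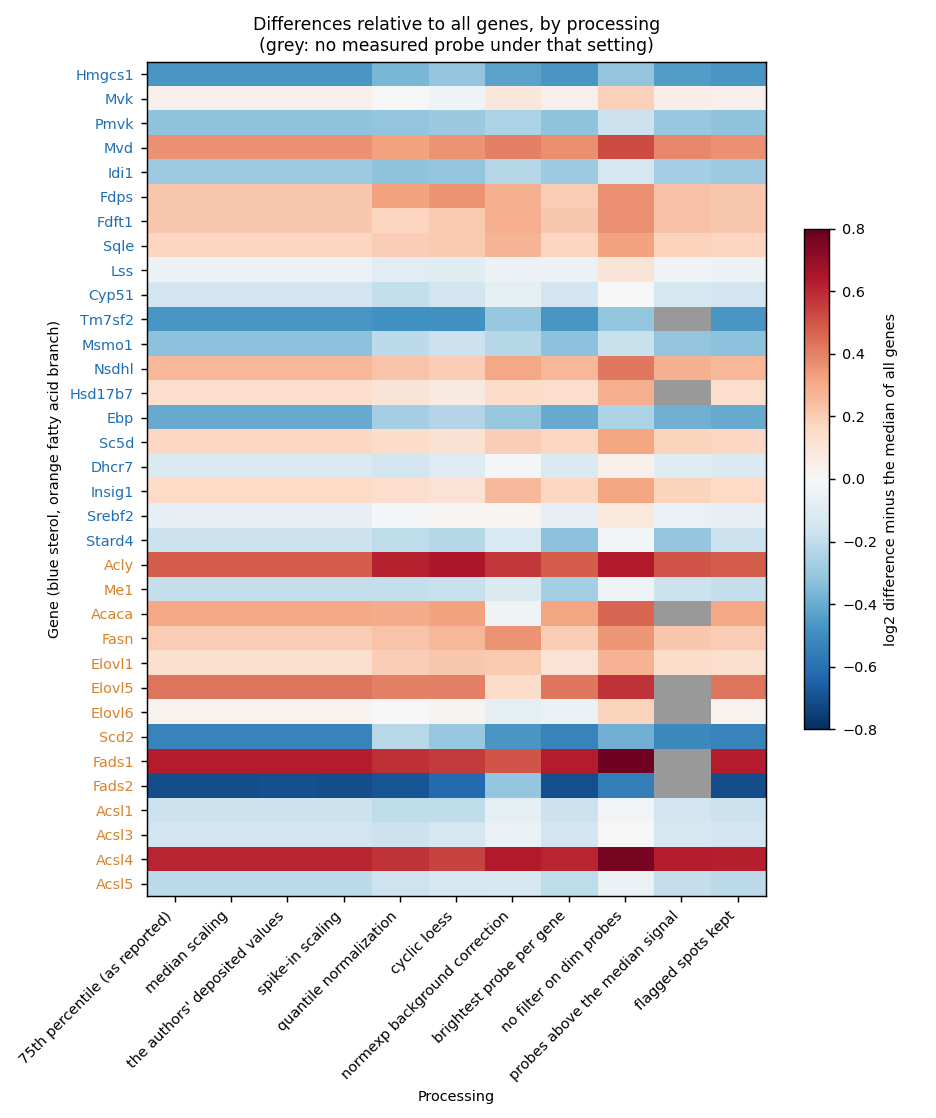
Difference of each measured gene minus the median difference of all genes (colour, log2 scale) under the reported processing and 10 alternatives (columns), with genes in pathway order (rows). Red is above and blue below the median of all genes, and grey marks genes without a measured probe under that alternative. The scalings by 1 constant per array give the same colours by construction, while Scd2 pales under quantile normalization and cyclic loess and Elovl5 under normexp. Without the filter on dim probes all rows shift to red, since the median of all genes was then -0.16.

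Most related genes also differed little, in lists chosen with earlier results of these data known. In other genes of sterol and isoprenoid synthesis 8 of 11 were measured, with a median of 0.033, 4 above 0 and 4 below, and 0 at 2-fold. Ggps1, which makes geranylgeranyl pyrophosphate, was at 0.54 ± 0.21, and Erg28, a scaffold of sterol demethylation, at -0.69 ± 0.21. The proteins that process the regulatory factors had a median of -0.0039 over 6 genes. Mbtps2, the intramembrane protease, was at 0.59 ± 0.26 but dim and as low as 0.056 under an alternative, Insig2 was at 0.15 ± 0.20, Mbtps1, the protease that cuts first, at -0.29 ± 0.20, and Scap, the escort, at -0.22 ± 0.20.

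Sterol uptake and transport had a median of 0.22 over 8 genes, 6 of them above 0 and 0 at 2-fold. Soat1, which esterifies cholesterol, was at 0.43 ± 0.22 (dim, and as low as 0.13 under an alternative) and the lipoprotein receptor Scarb1 at 0.34 ± 0.20, with Vldlr, a lipoprotein receptor too, at -0.037 ± 0.23 and the lysosomal cholesterol carrier Npc2 at -0.026 ± 0.20 at the other end. A list of targets of the oxysterol receptor LXR and genes of efflux, which also holds an LXR gene itself, had a median of 0.062 over 6 genes. In it the sterol exporter Abcg1 was highest, at 0.87 ± 0.20, with scaled signals of 304 and 554. Lpcat3, which puts polyunsaturated chains into phospholipids, was at 0.30 ± 0.20. The glucose-responsive factor Mlxipl was at -0.38 ± 0.40 but dim, with scaled signals of 1.87 and 1.44.

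Other genes of fatty acid synthesis had a median of -0.064 over 13 genes, with 1 at least 2-fold lower. That gene was Hacd3, a dehydratase of the elongation cycle, with scaled signals of 429 and 152 and a difference of -1.50 ± 0.20, which lay between -1.50 and -0.96 under the alternatives. Tecr, the reductase of the same cycle, was at -0.60 ± 0.20, while Slc25a1, which exports citrate for Acly, was at 0.43 ± 0.20 and the desaturase relative Fads3 at 0.24 ± 0.20. Fatty acid oxidation, the opposing pathway, had a median of 0.067 over 15 genes with 0 at 2-fold. Ppara, a receptor that drives oxidation genes, was at 0.74 ± 0.33 (dim, and as low as 0.027 under an alternative). Acads, a short-chain dehydrogenase, was at 0.38 ± 0.20. Lowest were Hadh at -0.76 ± 0.20 and Eci1 at -0.35 ± 0.30, the latter dim, with scaled signals of 3.51 and 2.76.

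**Figure D5:**
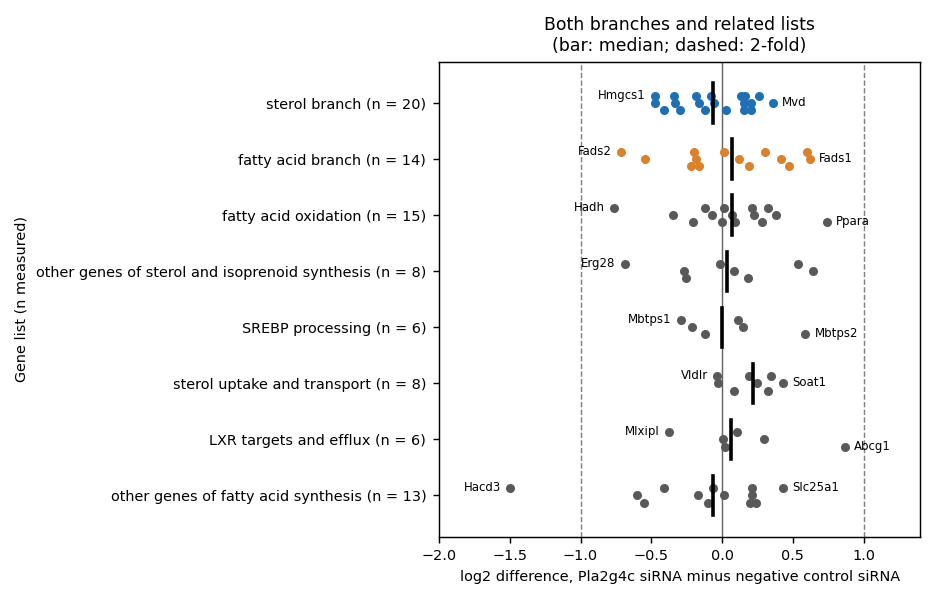
Differences of the measured genes of the sterol branch (blue), the fatty acid branch (orange) and 6 related lists (grey) on the log2 scale, Pla2g4c siRNA minus negative control siRNA, 1 point per gene and a black bar at the median of each list. Names mark genes at the ends of a list and dashed lines mark 2-fold. All medians lie between -0.067 and 0.22, and Hacd3 (-1.50) is the only point beyond 2-fold. Spike-in scaling would move all points up together, to a median of 0.53 over all genes.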

How the data were processed

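RNA of RMT-1 cells was measured on Agilent one-colour rat arrays, 1 for each siRNA. The deposited intensities are linear-scale spot values from Agilent Feature Extraction, version 10.10.1.1 per the file headers and 10.10 per the submitters' processing notes. The software's background and outlier flags (0 or 1) were used as deposited by the authors. Another deposited table of intensities was the processed signal times 1.77 (control) or 1.50 (Pla2g4c siRNA), as computed from the values.

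Processed signals were divided by the 75th percentile of the 58717 gene spots of their array and taken to log2. Spots with an outlier flag on either array (466 and 381 gene spots were flagged) were left out, and 0 were saturated. Spots were averaged per probe. A probe was measured if the software put every used spot well above background on each array (16840 of 30367 probes). A gene was the mean of its measured probes. RefSeq accessions named 18006 probes (59.3%), and promoters were RefSeq's for GRCr8, with the coordinates of that build and not of the array design (rn4). The error of a difference came from the software's error model, carried to log2 and not reduced by the number of spots.

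With 1 array per group no test was made. Counts were set beside those over 9026 measured genes. Genes named were all members and, per related list, up to 2 at each end, and the members and lists were chosen with earlier results of these data known. Not every gene that this rule allows is reported here. As alternatives, arrays were scaled to their median, to 7 spike-in RNAs or as in the authors' deposited values, or normalized by quantiles or cyclic loess. Others used normexp background correction with an offset of 50, dim probes left in, each gene's brightest probe, the probes above the median signal alone, spots with outlier flags too, enzymes only, or thresholds of 1.5-fold and 3-fold. Python 3.11.15 and, for normalization, limma 3.58.1 in R 4.3.3 were used. The steps were tested on simulated data.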

Additional observations from a re-analysis of the deposited data

How the results depend on the processing

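The sterol median stayed within 0.1 of the reported -0.067 under all alternatives except the authors' deposited values (0.065) and spike-in scaling (0.47). The fatty acid median, reported as 0.067, was 0.20 in the deposited values, 0.61 after spike-in scaling, -0.11 under normexp and -0.16 with only probes above the median signal. It was also -0.012 with no filter on dim probes, 0.020 with the brightest probe of each gene, 0.11 under quantile normalization and 0.14 under cyclic loess. The sterol minus fatty acid median, reported as -0.13, was 0.039 under normexp and 0.095 with only probes above the median signal, which measured 27 of the 34 members, and it was -0.055 with no filter on dim probes and -0.086 with the brightest probe. The count of members at 2-fold, reported as 0, was 3 after spike-in scaling, where 13.4% of all genes were at 2-fold, and 3 at a threshold of 1.5-fold. Why the values moved under normexp was not tested. The smaller number of genes applies to the probes above the median signal by construction. No paired analysis was possible because each group was 1 array, and for the same reason no replicate could be left out. The number of arrays limits the precision, and the errors were largest for the dim members Fads2, Elovl6, Acaca, Tm7sf2 and Elovl5, from 0.34 to 0.22.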
